A study of Homo sapiens with 6 samples.

Results

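The Wnt pathway was followed in MDA-MB-231 M3 cells through 44 genes, taken by symbol from a table of 20532 genes: ligands and their secretion factors, receptors, the Dishevelled proteins, the beta-catenin destruction complex, the tankyrases, nuclear factors and target genes. All 44 symbols were found in the table, each with 1 identifier. RNA came from 3 samples in which PRMT1, the main enzyme of asymmetric arginine dimethylation, had been knocked down with a small interfering RNA (siPRMT1), and from 3 control samples that the labels describe only as untreated or control cells. MDA-MB-231 is a human triple-negative breast cancer line, and M3 is a bone-metastatic derivative of it. The labels state neither the siRNA sequence nor whether the controls were transfected with a non-targeting siRNA.

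Wnt proteins are lipid-modified secreted ligands. In the canonical branch a Wnt binds a Frizzled receptor together with LRP5 or LRP6, Dishevelled is recruited, and the destruction complex of APC, axin, GSK3 and casein kinase 1 alpha no longer marks beta-catenin for degradation, so that beta-catenin reaches TCF and LEF factors in the nucleus. Tankyrases attach poly(ADP-ribose) to axin, and the ubiquitin ligase RNF146 then sends axin for degradation. In the other branch WNT5A-type ligands act through ROR1, ROR2 and RYK on the cytoskeleton and cell movement, and ROR1 is known from breast cancer cells that have mesenchymal features.

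Total counts ran from 16968563 to 20545995 in the siPRMT1 libraries and from 17921097 to 19645127 in the control libraries. PRMT1 itself had 193, 218 and 181 counts in siPRMT1 cells, against 3160, 2991 and 3072 in control cells. Of markers of the line, VIM, CD44, KRT18 and EGFR together gave between 4059 and 4106 CPM (counts relative to the TMM-scaled library size) in siPRMT1 libraries and between 3445 and 3485 CPM in control libraries, and the hormone receptor genes ESR1 and PGR together had at most 1 count in a siPRMT1 library and at most 4 in a control library. Within the first list KRT18 was 3.54-fold higher in siPRMT1 cells, EGFR 2.11-fold and CD44 1.64-fold lower, with corrected log2 values of 0.73, -0.28 and 0.02 for KRT18, EGFR and CD44. Of the leukocyte markers TYROBP had no count, PTPRC and CD3E at most 4 counts in any library, and the list summed to at most 9.33 CPM in siPRMT1 libraries and at most 5.48 CPM in control libraries, mostly CD14. The 4 endothelial markers, mostly PECAM1 and with CDH5 at or near 0, summed to at most 21.1 CPM in siPRMT1 and 26.3 CPM in control libraries, and the 4 bone cell markers, with IBSP at or near 0, to at most 7.45 CPM in siPRMT1 and 4.61 CPM in control libraries. Of these markers KDR was 8.02-fold lower (7 to 11 counts in siPRMT1, against 81 to 108 in control libraries) and BGLAP 3.56-fold higher in siPRMT1 cells. The part of other cells in the results was not tested.

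Of the 44 genes 40 had enough counts to be tested, and 36 of them differed between siPRMT1 and control cells: 25 were lower (62.5%, beside 45.0% of all tested genes) and 11 higher (27.5%, beside 44.3%) after the knockdown. Most receptors fell, with the steepest falls of the 40 in ROR1 and the tankyrase gene TNKS2, and beta-catenin, LRP6, APC and SOX9 fell with them. The ligands WNT5B and WNT7B, all 3 Dishevelled genes and GSK3A rose. FZD8, TCF7L1, TCF7L2 and RNF43 did not pass. Calls rest on a quasi-likelihood test in edgeR, adjusted over 13710 genes by Benjamini-Hochberg, at an adjusted p of 0.05, and log2 fold changes are siPRMT1 over control. In RNA from whole cultures, fewer cells that carry a transcript and less of it per cell cannot be told apart.

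Most tested genes thus passed, and neither a call nor separate groups alone set a Wnt gene apart. The share of all tested genes whose groups did not overlap was not counted. The median log2 fold change of the 40 was -0.42, beside -0.0082 over all tested genes. At least 2-fold rises were found for 4 of the 40 (10.0%, beside 15.3% of all tested genes) and at least 2-fold falls for 10 (25.0%, beside 21.0%). The 4 were WNT5B, WNT7B, DVL1 and GSK3A, and the 10 were ROR1, TNKS2, FZD6, APC, FZD7, CTNNB1, LRP6, SOX9, TNKS and RYK.

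Fold changes followed the base composition of the transcript. Across the 40 tested Wnt genes, which share the same 6 libraries, Pearson's r between the log2 fold change and the GC content of the canonical transcript was 0.71 (Spearman's rho 0.79), and over 13694 tested genes it was 0.62 (rho 0.65). With transcript length r was -0.47 over the 40 genes (rho -0.52) and -0.49 over all (rho -0.56). The 25 genes that fell had a median GC content of 46.2% and a median transcript length of 5360 bases, and the 11 that rose had 60.3% and 3288 bases. A second value is therefore given as "corrected", from a fit in which the trend with GC content and length was removed from each library, and whose log2 fold changes are relative to genes of similar composition and length. In that fit 24 of the 40 were lower and 13 higher (60.0% and 32.5%), beside 40.1% and 40.4% of all genes, and the median was -0.24. At least 2-fold falls were then 6 (ROR1, TNKS2, FZD7, FZD6, SOX9 and CTNNB1; 15.0%, beside 9.62% of all genes) and at least 2-fold rises 0, beside 4.73% of all genes. Of the 36 genes that passed, PORCN, FZD3, FZD4, AXIN1, GSK3B, CSNK1A1 and SP5 had the opposite sign after the correction. Whether the trend comes from the cells or from the libraries was not tested.

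**Figure D1:**
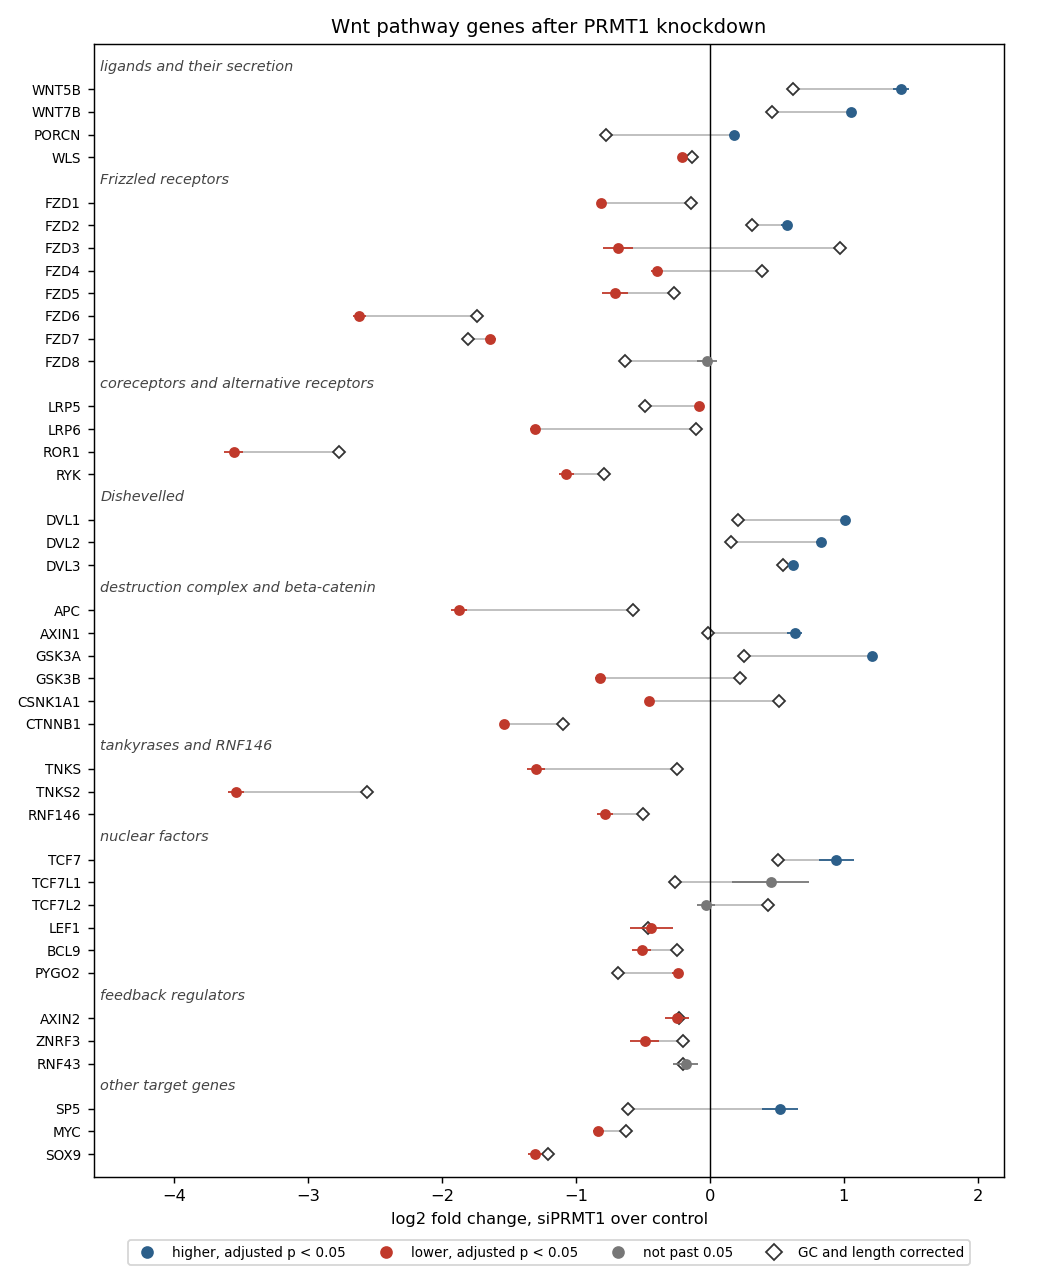
Log2 fold changes (siPRMT1 over control) of the 40 tested Wnt genes by role, as circles with standard errors coloured by call, and the values corrected for GC content and transcript length as open diamonds. ROR1 and TNKS2 lie farthest left by both measures, and 7 called genes have their diamond on the other side of 0.

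**Figure D2:**
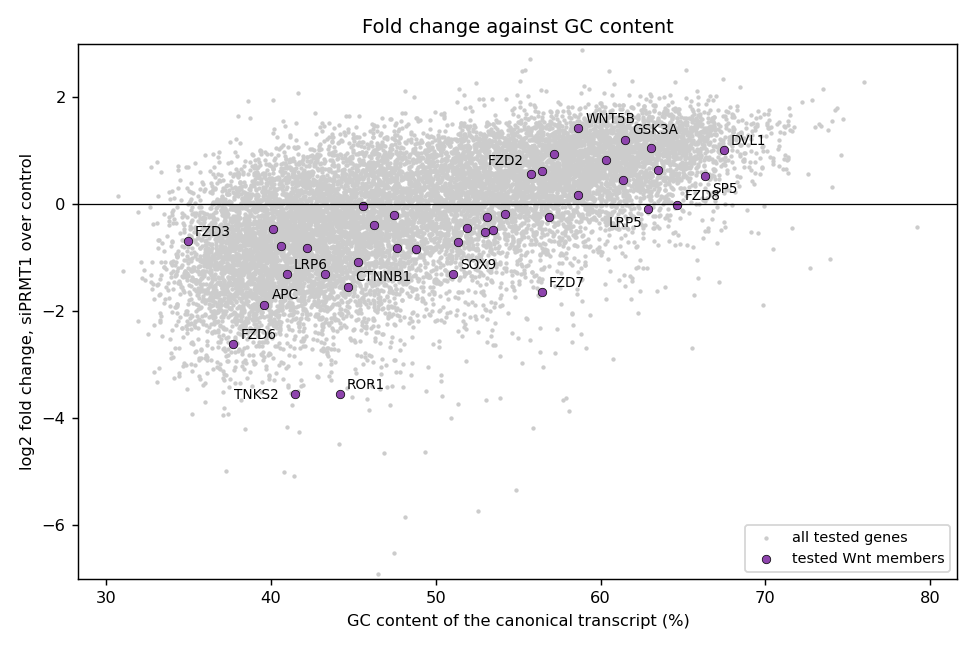
Log2 fold change (siPRMT1 over control) against the GC content of the canonical transcript in percent, for all tested genes in grey and the 40 tested Wnt genes in purple. FZD7, ROR1 and TNKS2 lie below most genes of their GC content.

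The promoters of 3 genes are printed, from 250 bases before to 50 bases after the gene start, as RefSeq gives them on GRCh38.p14. SP5 is shown because it is a textbook direct target of TCF and beta-catenin, ROR1 and TNKS2 because their transcripts fell most. TCF and LEF factors bind CTTTGAT and the near form CTTTGAA, and each match on either strand is in capitals; a match on the opposite strand reads ATCAAAG or TTCAAAG. SP5 lies at chr2:170715087-170715386 (plus strand), ROR1 at chr1:63773767-63774066 (plus strand) and TNKS2 at chr10:91798176-91798475 (plus strand).
SP5: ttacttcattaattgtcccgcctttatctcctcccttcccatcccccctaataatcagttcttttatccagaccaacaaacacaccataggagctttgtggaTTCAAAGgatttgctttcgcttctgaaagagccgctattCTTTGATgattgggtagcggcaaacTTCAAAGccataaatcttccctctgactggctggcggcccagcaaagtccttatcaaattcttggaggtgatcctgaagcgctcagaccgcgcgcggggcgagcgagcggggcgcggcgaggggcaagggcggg
ROR1: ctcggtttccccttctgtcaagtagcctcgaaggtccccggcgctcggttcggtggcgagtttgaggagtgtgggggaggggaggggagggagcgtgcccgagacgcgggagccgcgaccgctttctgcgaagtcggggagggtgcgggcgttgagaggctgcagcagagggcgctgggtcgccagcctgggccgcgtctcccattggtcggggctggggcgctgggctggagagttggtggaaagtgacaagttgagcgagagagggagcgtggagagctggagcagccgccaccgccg
TNKS2: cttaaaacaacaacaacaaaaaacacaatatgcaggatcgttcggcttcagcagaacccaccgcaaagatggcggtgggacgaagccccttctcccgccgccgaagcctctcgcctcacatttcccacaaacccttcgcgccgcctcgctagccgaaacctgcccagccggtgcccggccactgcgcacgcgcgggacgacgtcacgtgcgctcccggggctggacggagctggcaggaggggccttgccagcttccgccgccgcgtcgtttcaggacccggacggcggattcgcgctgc

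SP5 holds 1 CTTTGAT and 2 CTTTGAA matches, and it was the only one with a match among the 43 promoter entries found for 32 of the 44 genes. Among all 35116 promoter entries 2.62% hold CTTTGAT, 4.43% hold CTTTGAA, 6.86% hold either and 0.185% hold both. The ROR1 and TNKS2 windows have a GC content of 69.0% and 65.3%, beside a median of 58.7% over all promoters and 52.3% for SP5, so that both promoters are GC-rich while their transcripts are not (44.2% and 41.5%). A match is a string of letters and not a measured binding site.

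ROR1, the receptor tyrosine kinase-like receptor of WNT5A-type ligands, showed the steepest fall of the 40 (ENSG00000185483; hg38, chromosome 1, 63774017 to 64181498, plus strand). It had 69, 84 and 75 counts in siPRMT1 cells, against 1229, 997 and 1180 in control cells, which is 4.28, 4.57 and 4.93 CPM in siPRMT1 cells against 56.1, 49.8 and 55.5 CPM in control cells. No siPRMT1 library came near a control library. The level was 11.7-fold lower, with a log2 fold change of -3.55 (SE 0.0711; adjusted p = 1.26e-201 in edgeR), which put it at rank 35 from the lowest of the 13710 tested genes. The corrected value was -2.77. Its relative ROR2 had no count in any library, which allows at most 0.0603 CPM in siPRMT1 and 0.0475 CPM in control cells (3 counts over a group, counting error only). RYK, an atypical kinase that also binds Wnt, had 16.7, 18.3 and 17.1 CPM in siPRMT1 cells and 35.9, 37.1 and 37.0 CPM in control cells (log2 fold change -1.07, corrected -0.79). Both detected receptors of this branch thus fell, as did 45.0% of all tested genes.

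Of the LRP coreceptors, LRP6 fell far more than LRP5 in the main fit, but less than LRP5 in the corrected fit. LRP6 had 36.8, 36.2 and 37.4 CPM in siPRMT1 cells, against 91.8, 91.9 and 89.2 CPM in control cells, groups far apart (log2 fold change -1.31, SE 0.0382). The corrected value was -0.10, and the transcript is long and poor in GC (10252 bases, 41.0%). LRP5 had 245, 241 and 241 CPM in siPRMT1 cells, against 249, 258 and 263 CPM in control cells (log2 fold change -0.08, corrected -0.48; adjusted p = 8.25e-05 by edgeR). Its groups did not overlap, but their means differed by only 1.06-fold. Per kilobase of deposited gene length LRP5 was the highest of the 44 genes in control cells (41.5 ± 1.16 CPM per kilobase, SD, n = 3). It was the second highest in siPRMT1 cells (39.2 ± 0.411). These ranks depend on the length used, since CTNNB1 has a deposited length of 11759 bases but a canonical transcript of 3661. LRP5 made up 91.7% ± 0.146 of the summed LRP5 and LRP6 level in siPRMT1 and 82.5% ± 0.607 in control cells.

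Of 8 Frizzled genes 6 fell, FZD2 rose and FZD8 did not pass, beside 45.0% lower and 44.3% higher of all tested genes. In the corrected fit 5 were lower and 3 higher, beside 40.1% and 40.4% of all genes. FZD6 fell most (hg38, chromosome 8, 103298433 to 103332866, plus strand), with 14.2, 17.1 and 14.5 CPM in siPRMT1 cells, against 93.7, 93.9 and 95.3 CPM in control cells (6.14-fold lower; log2 fold change -2.62, SE 0.0469; corrected -1.74). FZD7, a receptor tied to stem-like and invasive breast cancer cells, had 26.3, 26.8 and 25.8 CPM in siPRMT1 cells, against 80.6, 83.8 and 81.5 CPM in control cells (hg38, chromosome 2, 202033855 to 202038441, plus strand; log2 fold change -1.64, SE 0.0423). In both genes the libraries of a group lay close together and the groups far apart. The corrected value of FZD7 was -1.81, and its transcript has a GC content of 56.4%. FZD1 had 54.7, 51.6 and 52.9 CPM in siPRMT1 cells and 93.4, 92.6 and 92.6 CPM in control cells (-0.81, corrected -0.14). FZD5 had 6.89, 6.58 and 6.24 CPM in siPRMT1 cells and 10.9, 11.0 and 10.3 CPM in control cells (-0.71, corrected -0.26). Neither gene's groups overlapped.

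FZD3 had 4.59, 4.62 and 4.86 CPM in siPRMT1 cells and 7.85, 7.45 and 7.29 CPM in control cells (log2 fold change -0.68, corrected 0.97). FZD4 had 32.5, 30.2 and 31.6 CPM in siPRMT1 cells and 42.8, 41.1 and 39.7 CPM in control cells (-0.39, corrected 0.39). Both were lower in every siPRMT1 library, but less so than genes of similar composition and length. The FZD4 transcript shares 18.9% of its bases with PRSS23 on the other strand, which had between 5349 and 6520 counts in siPRMT1 and between 10111 and 10906 in control libraries, and since the strand setting of the counting is not given, the FZD4 value is uncertain. FZD2 was the Frizzled gene that rose, with 58.0, 59.7 and 60.0 CPM in siPRMT1 cells and 40.0, 39.1 and 40.1 CPM in control cells (0.58, corrected 0.32). FZD8 had 12.3, 12.2 and 14.0 CPM in siPRMT1 cells and 12.4, 13.2 and 13.3 CPM in control cells, so that the groups overlapped (-0.02, SE 0.0767, adjusted p = 0.809 by edgeR). It passed as lower in the corrected fit (-0.64, adjusted p = 5.93e-11 by edgeR) and with scaling by library size alone (-0.34).

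Seen as a family, the Frizzled mRNA became smaller and changed its make-up. Summed per kilobase of gene length it was 41.6 ± 0.255 CPM per kilobase in siPRMT1 cells and 75.9 ± 0.161 in control cells (SD, n = 3 each), a ratio of 0.547. FZD6 contributed 9.04% ± 0.902 in siPRMT1 and 30.6% ± 0.300 in control cells, and FZD7 contributed 13.8% ± 0.285 in siPRMT1 and 23.5% ± 0.418 in control cells. FZD2 contributed 37.7% ± 0.467 in siPRMT1 cells and 13.9% ± 0.214 in control cells, which made it the leading Frizzled after the knockdown, where FZD6 led in control cells. The share of FZD1 was 18.5% ± 0.659 in siPRMT1 and 17.7% ± 0.128 in control cells. FZD8 had 7.63% ± 0.570 in siPRMT1 and 4.22% ± 0.151 in control cells, FZD4 had 10.2% ± 0.433 in siPRMT1 and 7.35% ± 0.286 in control cells, and FZD5 and FZD3 stayed at or below 2.37% in every library.

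**Figure D3:**
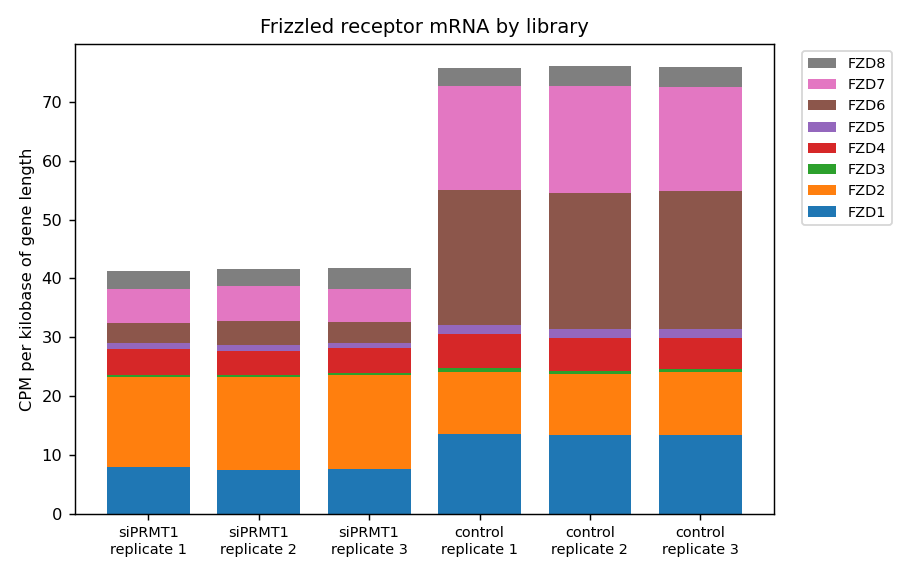
Level of the 8 Frizzled genes in each library, in TMM-scaled CPM per kilobase of deposited gene length, stacked. The siPRMT1 libraries sum to between 41.3 and 41.7 and the control libraries to between 75.7 and 76.1; the FZD6 and FZD7 segments are smaller and the FZD2 segment larger in siPRMT1 libraries.

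WNT5B and WNT7B rose. WNT5B, a ligand of the beta-catenin-independent type, had 33.9, 34.0 and 32.6 CPM in siPRMT1 cells, against 12.6, 11.8 and 12.9 CPM in control cells (hg38, chromosome 12, 1529891 to 1647212, plus strand; log2 fold change 1.43, SE 0.0607; corrected 0.62). WNT7B, which can signal through beta-catenin, had 106, 97.3 and 102 CPM in siPRMT1 cells, against 49.6, 48.8 and 48.2 CPM in control cells (1.06, SE 0.0345; corrected 0.46). Every siPRMT1 library lay above every control library for both. WNT5A, the textbook ligand of ROR1, was nearly absent: 1, 0 and 3 counts in siPRMT1 cells, against 14, 5 and 14 in control cells. It missed the filter on low counts, and the summed counts gave a level 6.49-fold lower in siPRMT1 cells with a 95% exact binomial interval from 2.31 to 25.2 that covers counting error only. Together the 3 ligand genes summed to 27.9 ± 0.803 CPM per kilobase in siPRMT1 and 12.6 ± 0.190 in control cells, most of it WNT7B.

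Genes of ligand export moved little in the main fit, but PORCN was lower in the corrected fit. WLS, which carries Wnt proteins to the cell surface, had 79.6, 79.5 and 78.0 CPM in siPRMT1 cells and 91.3, 91.2 and 91.1 CPM in control cells (log2 fold change -0.21, corrected -0.13). PORCN, the acyltransferase that attaches the lipid, had 66.5, 62.1 and 66.8 CPM in siPRMT1 cells and 58.2, 55.7 and 58.1 CPM in control cells. It rose by 0.18, but its value was -0.14 when libraries were scaled by size alone and -0.77 in the corrected fit, so its direction depends on the scaling. The scaling by library size alone put the median of all genes at -0.33 on the log2 scale.

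The 3 Dishevelled genes, which pass the signal from the receptors to the destruction complex, all rose. Of all tested genes 44.3% were called higher, and 40.4% in the corrected fit. DVL1 had 223, 217 and 214 CPM in siPRMT1 cells, against 104, 109 and 111 CPM in control cells (hg38, chromosome 1, 1335276 to 1349112, minus strand; log2 fold change 1.01, SE 0.0249; corrected 0.21). DVL2 had 85.1, 88.8 and 87.4 CPM in siPRMT1 cells and 48.2, 47.8 and 50.8 CPM in control cells (0.83, corrected 0.16). DVL3 had 86.8, 86.5 and 83.2 CPM in siPRMT1 cells and 55.7, 54.0 and 56.9 CPM in control cells (0.62, corrected 0.55). No groups overlapped, and with library size alone the 3 values were 0.69, 0.51 and 0.31. Their summed level was 86.1 ± 1.23 CPM per kilobase in siPRMT1 and 45.9 ± 1.23 in control cells. Per kilobase of deposited gene length DVL1 was the highest of the 44 genes in siPRMT1 cells (56.1 ± 1.20 CPM per kilobase). By the same length it was the fourth in control cells (27.9 ± 0.892), where it did not differ from CSNK1A1 (28.2 ± 0.627) beyond their spread. These ranks depend on the length used. DVL1 has a deposited length of 3882 and a canonical transcript of 3305 bases, and GSK3A has 5782 and 2193.

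CTNNB1, the gene of beta-catenin, had 141, 152 and 147 CPM in siPRMT1 cells, against 435, 424 and 420 CPM in control cells (hg38, chromosome 3, 41194741 to 41260096, plus strand). The level was 2.91-fold lower (log2 fold change -1.54, SE 0.0202; adjusted p = 1.39e-286 by edgeR) and the corrected value -1.10. The groups were far apart. Per kilobase of deposited gene length CTNNB1 was the second of the 44 genes in control cells (36.3 ± 0.680 CPM per kilobase) and at rank 11 in siPRMT1 cells (12.5 ± 0.473). That length is 11759 bases and the canonical transcript 3661, so the ranks depend on the length used. The mRNA does not show how much of the protein is degraded.

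The genes that mark beta-catenin for degradation did not move together. APC, the scaffold lost in colorectal tumours, had 10.4, 10.4 and 11.0 CPM in siPRMT1 cells, against 39.3, 40.4 and 36.6 CPM in control cells (hg38, chromosome 5, 112707518 to 112846056, plus strand; log2 fold change -1.87, SE 0.0625; corrected -0.57). AXIN1, the scaffold that limits the complex, had 34.7, 33.0 and 29.8 CPM in siPRMT1 cells and 20.2, 19.8 and 22.9 CPM in control cells; it rose by 0.63 but lay at -0.01 after the correction (adjusted p = 0.843 by edgeR). GSK3A had 177, 179 and 173 CPM in siPRMT1 cells, against 73.1, 77.6 and 78.5 CPM in control cells (1.21, SE 0.0279; corrected 0.25). GSK3A and GSK3B encode the 2 forms of the same kinase, and GSK3B was lower instead, with 35.7, 32.6 and 34.2 CPM in siPRMT1 cells and 59.8, 59.6 and 60.7 CPM in control cells (-0.82, but 0.22 corrected). GSK3A thus gave 94.1% ± 0.305 of the summed GSK3 level per kilobase in siPRMT1 and 79.7% ± 0.565 in control cells. The GSK3A transcript shares 26.1% of its bases with same-strand genes that are also in the table, and how such reads were assigned is not given, so its value is uncertain. CSNK1A1, the casein kinase 1 alpha gene, had 175, 178 and 172 CPM in siPRMT1 cells and 242, 244 and 234 CPM in control cells (-0.45, corrected 0.52); 47.5% of its transcript is also annotated as a long non-coding RNA on the same strand.

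TNKS2 fell almost as far as ROR1 (ENSG00000107854; hg38, chromosome 10, 91798426 to 91865475, plus strand). It had 91, 116 and 108 counts in siPRMT1 cells, against 1568, 1509 and 1575 in control cells, which is 5.65, 6.31 and 7.09 CPM in siPRMT1 cells against 71.6, 75.4 and 74.1 CPM in control cells. The groups were more than an order of magnitude apart. TNKS2 was 11.6-fold lower (log2 fold change -3.54, SE 0.0610; adjusted p = 1.71e-230 in edgeR; corrected -2.56). TNKS, the other tankyrase gene, had 11.0, 10.6 and 13.1 CPM in siPRMT1 cells, against 28.8, 29.4 and 26.7 CPM in control cells (-1.30, SE 0.0660; corrected -0.25). RNF146, the ligase that reads their mark, had 16.6, 18.3 and 17.9 CPM in siPRMT1 cells and 31.0, 31.0 and 28.9 CPM in control cells (-0.78, corrected -0.50). All 3 genes of this axin-destroying step were lower by both measures, beside 45.0% of all tested genes in the main and 40.1% in the corrected fit. By deposited gene length the summed tankyrase level was 1.85 ± 0.203 CPM per kilobase in siPRMT1 and 13.8 ± 0.331 in control cells, a ratio of 0.134. TNKS2 supplied 55.0% ± 1.90 of it in siPRMT1 and 85.3% ± 0.712 in control cells. Of counts not divided by length TNKS2 gave 35.4% ± 1.76 in siPRMT1 and 72.2% ± 1.14 in control cells. The deposited length of TNKS is 13920 and its canonical transcript 9622 bases, so which tankyrase led in siPRMT1 cells depends on the length used.

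**Figure D4:**
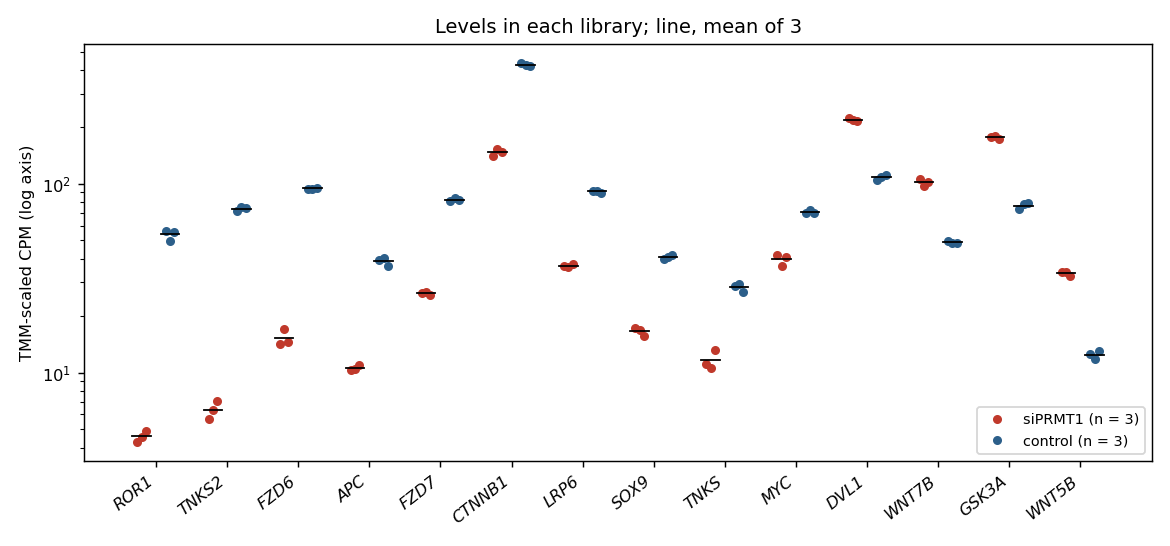
TMM-scaled CPM of 14 Wnt genes in each library on a log axis, siPRMT1 libraries in red and control libraries in blue, with a line at the mean of 3. The 10 genes on the left are lower and the 4 on the right higher in every siPRMT1 library than in any control library. They were picked from called genes. Of all tested genes 45.0% were called lower and 44.3% higher, so separate groups alone do not set these 14 apart.

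Of the TCF and LEF factors, which bring beta-catenin to DNA, TCF7 rose and LEF1 fell. TCF7 had 6.14, 5.60 and 6.37 CPM in siPRMT1 cells, against 2.97, 3.10 and 3.29 CPM in control cells (log2 fold change 0.95, SE 0.131; corrected 0.51). LEF1 had 3.04, 2.28 and 2.30 CPM in siPRMT1 cells and 3.33, 3.40 and 3.58 CPM in control cells (-0.44, SE 0.160; adjusted p = 0.00760 by edgeR; corrected -0.46); without siPRMT1 replicate 2 the adjusted p was 0.0611, and by DESeq2 0.0618. TCF7L2, the main member of the group here, had 18.4, 17.8 and 17.3 CPM in siPRMT1 cells and 17.6, 18.7 and 18.2 CPM in control cells, overlapping groups (-0.03, adjusted p = 0.688 by edgeR). It passed as higher in the corrected fit (0.43, adjusted p = 1.55e-08) and as lower with library size alone (-0.34). TCF7L1, mostly a repressor, lay between 0.979 and 1.25 CPM in siPRMT1 and between 0.639 and 1.04 CPM in control libraries (0.45, adjusted p = 0.125 by edgeR; 0.72 and adjusted p = 0.0337 without control replicate 3; corrected -0.26). Summed over the 4 genes by deposited gene length the level was 3.96 ± 0.149 CPM per kilobase in siPRMT1 and 3.82 ± 0.137 in control cells, a difference within the spread of the libraries. The deposited length of TCF7, which rose, is 10093 bases and its canonical transcript 3288, so this comparison depends on the length used. The adaptor genes BCL9 and PYGO2, which link beta-catenin to transcription, fell. BCL9 had 13.3, 11.7 and 14.2 CPM in siPRMT1 cells and 17.8, 19.4 and 18.3 CPM in control cells (-0.51, corrected -0.25). PYGO2 had between 48.0 and 52.1 CPM in siPRMT1 and between 58.0 and 59.8 CPM in control libraries (-0.24, corrected -0.68).

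Of the genes listed as feedback regulators or other targets, SP5 alone rose in the main fit. In the corrected fit 2 of the 3 tested feedback regulators (AXIN2, ZNRF3 and RNF43) were lower, namely AXIN2 and RNF43. Both share part of their transcript with a same-strand gene, and the corrected fit was not repeated with a library left out. All 3 other targets (SP5, MYC and SOX9) were lower in the corrected fit too, beside 40.1% of all genes, and none of these genes was higher. AXIN2, the most used readout of beta-catenin signalling, had 10.5, 8.81 and 7.62 CPM in siPRMT1 cells and 10.5, 10.5 and 10.9 CPM in control cells, with groups that overlapped. It fell by 0.24 on the log2 scale (SE 0.0883; adjusted p = 0.00718 by edgeR), but the adjusted p was 0.146 without siPRMT1 replicate 3 and 0.0707 by DESeq2, and 30.9% of its transcript is shared with another gene on the same strand that had between 17 and 27 counts in siPRMT1 and between 69 and 80 in control libraries. SP5, the target with the TCF letters printed above, had 5.52, 4.51 and 4.73 CPM in siPRMT1 cells and 3.01, 3.80 and 3.44 CPM in control cells. It rose by 0.53 (SE 0.136; adjusted p = 1.44e-04 by edgeR); with scaling by library size alone it was 0.21 (adjusted p = 0.133), and after the correction -0.61. The AXIN2 call in the main fit thus rested on 1 library, and the direction of SP5 turned with the GC and length correction. AXIN2 had a corrected value of -0.23 (adjusted p = 0.0181 by edgeR).

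ZNRF3 and RNF43 are membrane ubiquitin ligases that remove Frizzled receptors and are themselves targets of the pathway. ZNRF3 had 5.34, 4.84 and 5.78 CPM in siPRMT1 cells and 6.71, 7.65 and 7.91 CPM in control cells (-0.49, adjusted p = 1.56e-05 by edgeR; corrected -0.20 and adjusted p = 0.0904). RNF43 had 8.31, 8.76 and 8.01 CPM in siPRMT1 cells and 9.27, 9.64 and 9.60 CPM in control cells (-0.18, adjusted p = 0.0566 by edgeR; corrected -0.20 and adjusted p = 0.0347). It shares 71.0% of its transcript with a same-strand gene that had between 2553 and 3215 counts in siPRMT1 and between 1892 and 2086 in control libraries, against at most 204 counts of RNF43, so its value is uncertain. The feedback inhibitor genes NKD1, with 1 count in each group, and NKD2, with none, were not measurable at this depth.

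SOX9 and MYC, transcription factor genes that beta-catenin activates in several tissues, fell. SOX9 had 17.2, 16.7 and 15.7 CPM in siPRMT1 cells, against 40.0, 40.8 and 42.1 CPM in control cells (hg38, chromosome 17, 72121020 to 72126416, plus strand; -1.31, SE 0.0551; corrected -1.21). MYC had 42.1, 36.8 and 40.8 CPM in siPRMT1 cells, against 69.8, 72.4 and 70.0 CPM in control cells (-0.83, SE 0.0398; corrected -0.62). Neither gene's groups overlapped. Both have many regulators besides Wnt.

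Ratios of related genes within a library do not depend on how libraries are scaled, but they do carry any difference between the genes in GC content and length. Of 13 pairs 10 had both genes tested. The ratio of TNKS2 to TNKS, per kilobase of deposited length, was 1.14, 1.33 and 1.20 in siPRMT1 libraries, against 5.53, 5.71 and 6.18 in control libraries, a 4.74-fold difference. How high such a ratio lies depends on the length used, but the fold difference between the groups does not. APC to AXIN1 was 0.162, 0.172 and 0.200 in siPRMT1 libraries, against 1.06, 1.11 and 0.868 in control libraries (5.66-fold). FZD7 to FZD2 was 0.374, 0.369 and 0.353 in siPRMT1 libraries, against 1.66, 1.76 and 1.67 in control libraries (4.64-fold). In each of these pairs the first gene was thus lower relative to the second after the knockdown. GSK3B to GSK3A differed by 4.06-fold, FZD6 to FZD5 by 3.79-fold, LRP6 to LRP5 by 2.33-fold, TCF7L2 to TCF7 by 1.97-fold and AXIN2 to AXIN1 by 1.85-fold, all lower in siPRMT1 cells. DVL3 to DVL1 (1.31-fold) and ZNRF3 to RNF43 (1.23-fold) differed least. With the corrected log2 fold changes TNKS2 to TNKS (4.97-fold), FZD7 to FZD2 (4.36-fold) and FZD6 to FZD5 (2.77-fold) were still the lower ratios in siPRMT1 cells by more than 2-fold. APC to AXIN1 was then 1.47-fold, AXIN2 to AXIN1 1.16-fold, TCF7L2 to TCF7 1.05-fold and GSK3B to GSK3A 1.02-fold lower. LRP6 to LRP5 was 1.30-fold and DVL3 to DVL1 1.26-fold higher, and ZNRF3 to RNF43 lay at 1.00-fold. An exact two-sided permutation test gave p = 0.1 for each of the 10 pairs (0.1 adjusted over them), which is the smallest value that 3 against 3 libraries can give, so none can pass 0.05, and the pairs were chosen with earlier results known.

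**Figure D5:**
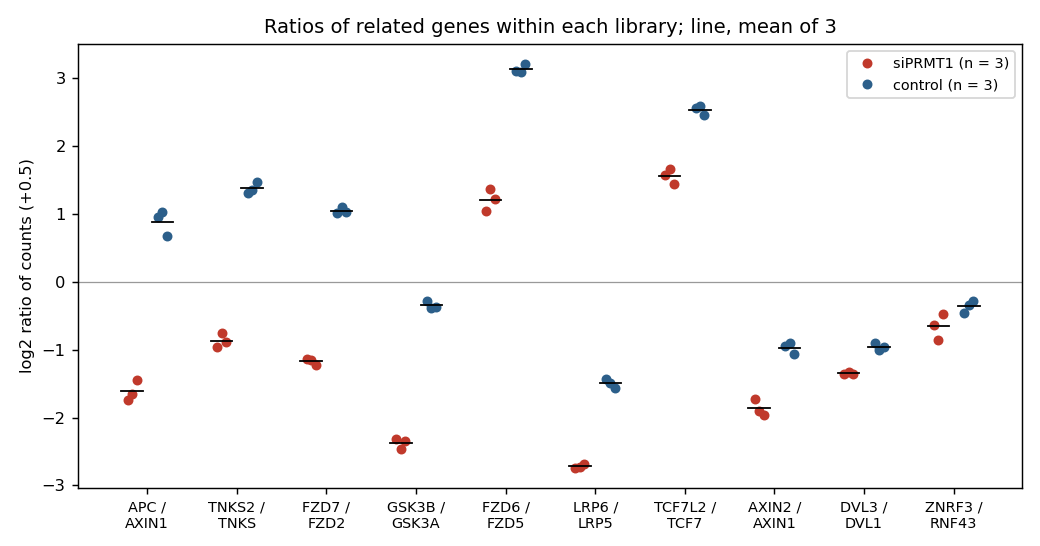
Log2 ratio of the counts of 2 related Wnt genes, each plus 0.5, in every library, siPRMT1 in red and control in blue, with a line at the mean of 3. Pairs are ordered by the difference, from APC to AXIN1 on the left to ZNRF3 to RNF43 on the right.

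Beyond the 44, a list of 95 further pathway genes held 60 that were tested, of which 36 fell (60.0%, beside 45.0% of all tested genes) and 18 rose (30.0%, beside 44.3%). Their median was -0.43 on the log2 scale (corrected -0.24), and in the corrected fit 33 were lower (55.0%, beside 40.1%) and 21 higher (35.0%, beside 40.4%). The R-spondin receptor genes LGR5 (-2.48, corrected -1.83) and LGR4 (-2.12, corrected -1.29), whose products protect Frizzled receptors from ZNRF3 and RNF43, fell most, and LGR4 averaged 32.4 ± 0.593 CPM in siPRMT1 and 141 ± 2.45 CPM in control cells (SD, n = 3 each). The tested genes PTK7 and LRP4 of the same list of receptors and R-spondins fell too. USP34, a deubiquitinase of axin (-2.01, corrected -0.80), EP300, an acetyltransferase coactivator (-1.98, corrected -1.35), FBXW11, a ubiquitin ligase subunit that recognises beta-catenin (-1.93, corrected -1.30), and CSNK1G1 (-1.83, corrected -0.92), a casein kinase 1 gene, complete the 6 lowest.

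The 6 highest were the planar polarity gene FUZ, with 26.7 ± 0.195 CPM in siPRMT1 and 7.66 ± 0.599 CPM in control cells (1.80, corrected 0.65), TLE5 (1.19, corrected 0.10), a short member of the TLE corepressor family, ZNF703 (1.07, corrected 0.30), CSNK1G2 (1.04, corrected 0.19), APC2 (0.99, corrected 0.79), a relative of APC, and BIRC5 (0.98, corrected 0.77), which encodes survivin. The smaller lists are to be read against the same shares of all tested genes, 45.0% lower and 44.3% higher. Of the 7 tested antagonist genes 4 fell and 1 rose. Of 10 tested further targets 6 fell and 4 rose. Of 16 tested cytoplasmic regulators 10 fell and 6 rose, 8 tested planar polarity genes gave 5 lower and 2 higher, and 10 nuclear cofactors 6 lower and 3 higher. In the corrected fit, lower and higher calls were 6 and 0 for antagonists, 5 and 5 for further targets, and 7 and 8 for cytoplasmic regulators. They were 1 and 4 for planar polarity genes and 7 and 3 for nuclear cofactors, beside 40.1% lower and 40.4% higher of all genes.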

How the data were processed

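Stranded mRNA libraries from 3 siPRMT1 and 3 control samples of MDA-MB-231 M3 cells were sequenced from both ends for 150 bases, per the labels' protocols. The deposited table holds raw counts of reads for each gene as whole numbers, with coordinates and gene length, per the file headers. Tools named in the submitters' processing notes, without their roles, are edgeR 3.40.2, Subread 1.5.1 with featureCounts, STAR 2.7.6a and fastp 0.23.2, and the build is hg38. The annotation, the strand setting and how duplicates were treated were not stated there. The labels say biological replicates without naming separate transfections, so the p-values speak of the spread among these 6 libraries alone, and that spread may be technical: within groups the chi-square of counts divided by its degrees of freedom was between 1.05 and 1.38.

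Genes were kept with filterByExpr (13710 of 20532), scaled by TMM and compared in R 4.3.3 with edgeR 4.0.16 (glmQLFit, glmQLFTest, Benjamini-Hochberg adjustment over all tested genes, threshold 0.05); the standard error is the log2 fold change divided by the square root of F. GC content and length of canonical transcripts came from GENCODE release 44; the corrected fit removed splines with 5 degrees of freedom on each from every library as offsets, centred on the median gene (13694 genes). Levels per kilobase use the deposited gene length, which is longer than the canonical transcript for many genes. Ranks, sums and shares that compare genes depend on it. Every one of the 44 genes is named, and of 95 further genes the 6 highest and 6 lowest that passed and averaged 2 CPM or more. Members, lists and tests were chosen with earlier results of these data known. Alternatives were other scalings, DESeq2 1.42.0, limma-voom (limma 3.58.1), other filters, a replicate block, and omission of each library. The value of 1 marker gene is not reported here.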

Additional observations from a re-analysis of the deposited data

How the results depend on the processing

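With 3 libraries per group no single library could be tested as an outlier. The count of genes past the threshold lay between 11003 and 12532 over the alternatives run, beside 12243; the number of Wnt genes lower lay between 23 and 29, beside 25, and the number higher between 9 and 13, beside 11. With the replicate number as a block (replicate block) 25 were lower and 11 higher, and no call among the 44 genes changed. The labels tie the numbers to nothing shared, and deviations of same-numbered samples correlated at -0.0104, 0.0366 and 0.0015. The median log2 fold change of the tested Wnt genes, -0.42, was -0.73 with library size alone and -0.24 after the GC and length correction, also with the replicate block, and lay between -0.45 and -0.36 when 1 library was left out.

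Of the called genes, signs turned under the GC and length correction, without and with the replicate block, for PORCN (-0.77 and -0.77), FZD3 (0.97 and 0.97), FZD4 (0.39 and 0.39), AXIN1 (-0.012 and -0.011), GSK3B (0.22 and 0.23), CSNK1A1 (0.52 and 0.52) and SP5 (-0.61 and -0.61), and of the others for TCF7L2 (0.43 and 0.43) and TCF7L1 (-0.26 and -0.24); they also turned with library size alone for PORCN (-0.14); the correction removes the trend shared by genes of like composition by construction, and no other cause was tested. FZD8 lay between -0.079 and 0.019 when 1 library was left out. Under the correction, an alternative for the ratios chosen after seeing the data, the log2 difference turned for LRP6 to LRP5 (0.38), DVL3 to DVL1 (0.34) and ZNRF3 to RNF43 (0.00043). RNF43 passed with upper-quartile scaling, library size alone, no filter and the correction. For 6 of 8 Frizzled genes the change in share from control to siPRMT1 differed by more than the spread between counts not divided by length and levels per kilobase. The direction of the change stayed the same. Genes under about 1 CPM (WNT5A, ROR2, NKD1, NKD2, TCF7L1) are limited by depth.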
